A study of Bos taurus with 10 samples.

Results

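Nicotinamide phosphoribosyltransferase (NAMPT) and 9 further genes of nicotinamide adenine dinucleotide (NAD) metabolism were examined in the liver of dairy cows fed conjugated linoleic acid (CLA), a mixture of isomers of linoleic acid whose double bonds are conjugated. The genes were chosen by symbol, with the differences between the CLA and the control pools already known, so those differences are given below as a description and without a test. Of the 10 genes, 8 had a probe set that the platform annotation assigns to that gene alone. NMNAT3 and NNMT had none and were not analysed here. The 8 genes were read by 12 of the 24016 probe sets tested, 2 each for NAMPT, NADSYN1, SIRT1 and SIRT3 and 1 each for NMNAT1, NAPRT, QPRT and SIRT5.

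The CLA group comprised 20 female Holstein cows given a rumen-protected CLA fat, and the control group 20 female Holstein cows given a rumen-protected control fat. Each fat made up 27.3% of an extra concentrate, of which a cow received 630 g of dry matter daily, starting 3 weeks before calving and ending in week 14 of lactation, and all cows ate the same mixed ration. Liver biopsies of week 5 of lactation were used, and the RNA of 4 cows was combined into each of 5 CLA pools and 5 control pools, with 1 Affymetrix bovine array per pool. Standard errors therefore rest on the spread between pools of 4 cows. The program limma moderated that spread toward a common value over all probe sets, so an SE is not that of 1 probe set alone. Values of single cows, ages and the membership of each pool were not analysed here.

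NAD carries electrons in fuel oxidation and is also consumed as a substrate by sirtuins, poly(ADP-ribose) polymerases and the glycohydrolase CD38. In the salvage route, NAMPT, known as its rate-limiting enzyme, joins nicotinamide to phosphoribosyl pyrophosphate, and NMNAT1 (nucleus) and NMNAT3 (mitochondria) add the adenylyl group that completes NAD. Nicotinic acid enters through NAPRT, and tryptophan enters through QPRT, a step that is active in liver. Both of these routes end with the amidation of nicotinic acid adenine dinucleotide by NADSYN1. SIRT1 removes acetyl groups from proteins in the nucleus, SIRT3 does so in mitochondria, and SIRT5 removes succinyl, malonyl and glutaryl groups.

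The values are log2 expression values normalized by the authors, so a difference of 1 stands for a doubling. The array medians lay between 5.79 and 5.82 in the CLA pools and between 5.83 and 5.85 in the control pools. Pairwise correlations of the arrays over all probe sets were 0.988 to 0.996. Hepatocyte markers were bright on every array, with mean log2 values over 10 genes of 13.33 to 13.68 in the CLA pools and 13.06 to 13.60 in the control pools. Among them HP varied most between pools, with an SD of 1.6 in the CLA and 2.1 in the control pools. The other markers had SDs from 0.011 to 0.46, so these ranges are no measure of hepatocyte content. Markers of skeletal muscle, which a biopsy needle can pass through, averaged 5.20 to 5.59 over 7 genes in the CLA pools and 5.21 to 5.86 in the control pools. MYH7 (9.85 in the CLA and 9.68 in the control pools) and CKM (8.81 and 8.84) were far brighter than the rest. Of the 7 genes, 4 were among the dimmest 30% of probe sets. The highest average was that of control pool 1, and ACTA1 and TNNT1 varied most in the control pools (SD 0.79 and 0.82). Levels of a transcript in bulk liver cannot separate fewer cells of a type from less RNA per cell.

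NAMPT (NCBI gene 520472), the entry enzyme of the salvage route, had higher values in the CLA pools at both of its probe sets. At the probe set with the brighter signal, log2 values were 7.93, 8.25, 8.11, 8.11 and 8.25 in CLA pools 1 to 5, against 7.85, 7.94, 7.87, 7.88 and 7.97 in control pools 1 to 5. Of the CLA pools, 4 lay above every control pool, and CLA pool 1 lay among the control pools, so the groups overlapped. The means were 8.13 ± 0.13 in the CLA pools and 7.90 ± 0.051 in the control pools (SD, n = 5 each), a difference of 0.23 ± 0.075 (SE, log2), or 1.17-fold.

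At the dimmer NAMPT probe set, log2 values were 7.46, 7.60, 7.37, 7.74 and 7.57 in CLA pools 1 to 5, against 7.08, 7.01, 7.03, 7.25 and 7.14 in control pools 1 to 5. Every CLA pool lay above every control pool. The means were 7.55 ± 0.14 in the CLA pools and 7.10 ± 0.097 in the control pools (SD, n = 5 each), a difference of 0.45 ± 0.082 (SE, log2), or 1.36-fold. The terms brighter and dimmer only name the probe sets of a gene here, since signals of different probe sets cannot be set against each other as transcript levels.

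**Figure D1:**
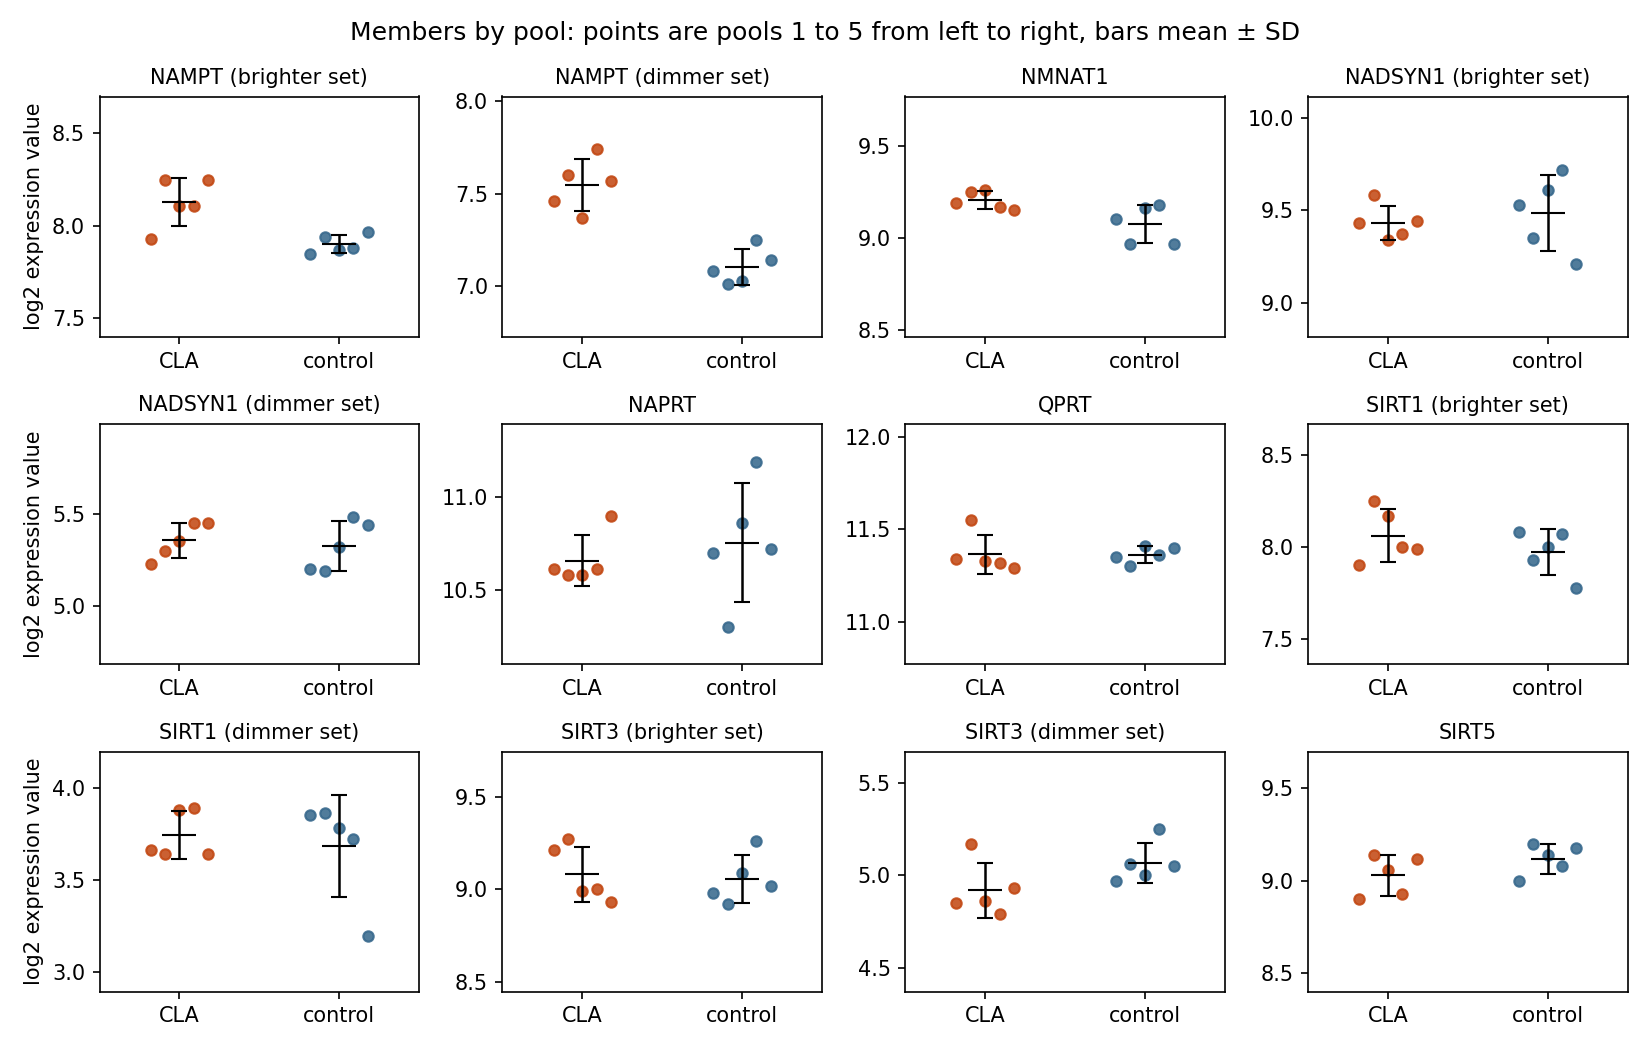
Log2 expression value (y axis, each panel spanning the same height) of the 12 probe sets in the CLA pools (left in each panel) and control pools (right), with points for pools 1 to 5 from left to right and bars for mean ± SD. The groups are separate in the panel of the dimmer NAMPT probe set and overlap in the other 11 panels.

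The probe sets of NAMPT differed in size of difference, 0.45 ± 0.082 at the dimmer and 0.23 ± 0.075 at the brighter (SE, log2). They also ordered the pools differently within a group. CLA pool 4 was the highest CLA pool at the dimmer probe set, and CLA pools 2 and 5 were highest at the brighter. With group means removed, the correlation of the probe sets over the 10 pools was 0.264, against 0.660 for the probe sets of SIRT3, 0.507 for SIRT1 and 0.0287 for NADSYN1, given as a description of probe sets that share their arrays. The settings tried, 17 in all, included each pool left out in turn. Over them the brighter probe set stayed between 0.20 and 0.28 and the dimmer between 0.40 and 0.49. The lowest of these differences came without CLA pool 2 or 5 at the brighter probe set and without CLA pool 4 at the dimmer. Some settings could not move the difference of any probe set. These were the pool number as a block, trend and robust eBayes and removal of the dimmest 30% of probe sets. Leaving out a pool could not reverse the dimmer probe set either, since every CLA pool lay above every control pool there.

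**Figure D2:**
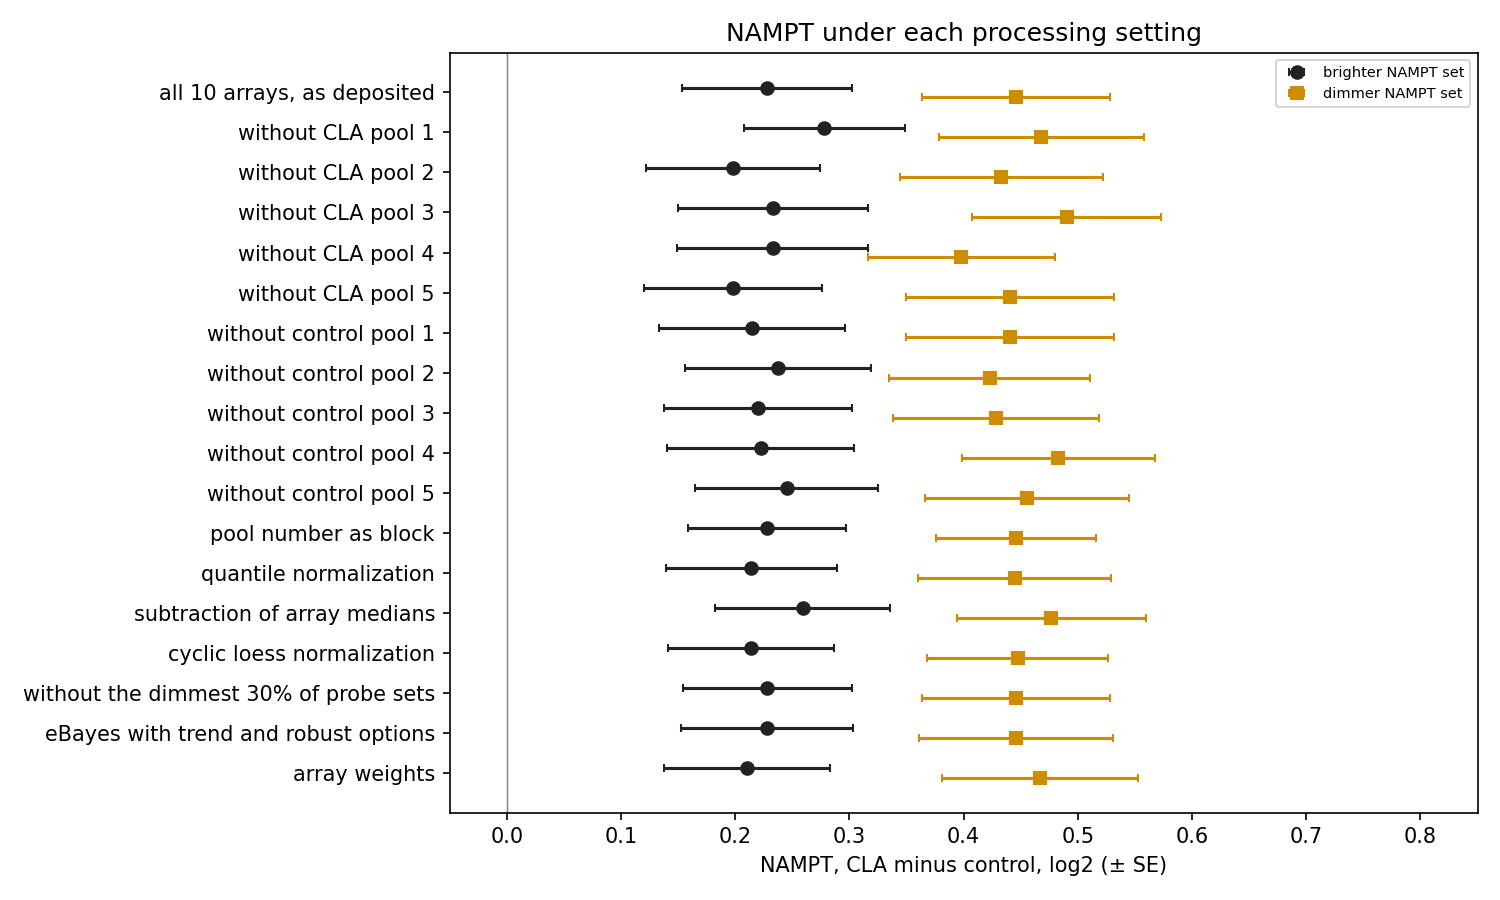
Difference of NAMPT, CLA minus control, in log2 (x axis, ± SE) at the brighter (circles) and dimmer (squares) probe set. Rows are all arrays as deposited, each pool left out and each processing setting. All points lie to the right of 0, between 0.20 and 0.28 for the brighter probe set and between 0.40 and 0.49 for the dimmer.

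NMNAT1, the nuclear enzyme of the following step, had log2 values of 9.19, 9.25, 9.26, 9.17 and 9.15 in CLA pools 1 to 5, against 9.10, 8.97, 9.16, 9.18 and 8.97 in control pools 1 to 5. All CLA pools lay above the control mean and 3 of 5 above every control pool. The means were 9.20 ± 0.049 in the CLA pools and 9.08 ± 0.10 in the control pools (SD, n = 5 each), a difference of 0.13 ± 0.068 (SE, log2). Quantile normalization gave 0.091 and subtraction of array medians 0.16. The spread of NMNAT1 between pools was small, with a pooled SD of 0.079 that 5.92% of all probe sets undercut.

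The enzymes of the nicotinic acid and tryptophan entries showed no shared direction. QPRT, which makes nicotinic acid mononucleotide from quinolinate, had means of 11.37 ± 0.10 in the CLA pools and 11.36 ± 0.044 in the control pools (SD, n = 5 each), a difference of 0.002 ± 0.068 (SE, log2). Its sign turned after quantile normalization (-0.036) and cyclic loess normalization (-0.037), and without CLA pool 2 (-0.044) or control pool 1 or 2. In CLA pool 2 QPRT stood at 11.55, and in the other CLA pools between 11.29 and 11.34, while the control pools ranged from 11.30 to 11.41.

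NAPRT, which starts NAD synthesis from nicotinic acid, was the most variable of the 12 probe sets, with a pooled SD of 0.25. Its log2 values were 10.61, 10.58, 10.58, 10.61 and 10.90 in CLA pools 1 to 5, against 10.70, 10.30, 10.86, 11.19 and 10.72 in control pools 1 to 5. The 5 CLA pools all lay within the range of the control pools. The difference of -0.098 ± 0.14 (SE, log2) was smaller than its SE, and it stood at 0.011 without control pool 4 and at -0.21 without control pool 2.

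NADSYN1, the amidating enzyme, had means of 9.43 ± 0.093 in the CLA pools and 9.48 ± 0.20 in the control pools (SD, n = 5 each) at its brighter probe set. The difference was -0.052 ± 0.098 at that probe set and 0.030 ± 0.081 at the dimmer (SE, log2). Both were within the spread between pools, and each turned its sign without single control pools: the brighter without control pool 4, the dimmer without control pool 1 or 2. The range of the brighter probe set was 0.24 over the CLA pools and 0.51 over the control pools.

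Among the sirtuins, SIRT1 had log2 values of 7.90, 8.25, 8.17, 8.0 and 7.99 in CLA pools 1 to 5, against 8.08, 7.93, 8.0, 8.07 and 7.78 in control pools 1 to 5, at its brighter probe set. The groups overlapped, with CLA pool 1 below 4 of the control pools. The difference was 0.090 ± 0.087 (SE, log2), and it stood at 0.042 without control pool 5 and at 0.1305 without CLA pool 1. The dimmer probe set was the 1 member among the dimmest 30% of probe sets on the array. It differed by 0.060 ± 0.12 (SE, log2), and by -0.061 without control pool 5, which stood at 3.20 where the other control pools lay between 3.72 and 3.86.

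SIRT3 differed in sign between its probe sets. The brighter had means of 9.08 ± 0.15 in the CLA pools and 9.05 ± 0.13 in the control pools (SD, n = 5 each), a difference of 0.026 ± 0.090 (SE, log2) that turned to -0.015 after quantile normalization and turned sign without CLA pool 1, CLA pool 2 (-0.022) or control pool 2. At the dimmer, log2 values were 4.85, 5.17, 4.86, 4.79 and 4.93 in CLA pools 1 to 5, against 4.97, 5.06, 5.00, 5.25 and 5.05 in control pools 1 to 5. There 4 CLA pools lay below every control pool, and CLA pool 2 lay above all but control pool 4. The difference was -0.15 ± 0.086 (SE, log2), and it stayed negative under all 17 settings, from -0.21 to -0.10.

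SIRT5 had log2 values of 8.90, 9.14, 9.06, 8.93 and 9.12 in CLA pools 1 to 5, against 9.0, 9.20, 9.14, 9.08 and 9.18 in control pools 1 to 5. CLA pools 1 and 4 lay below every control pool and the other CLA pools lay among them. The means were 9.03 ± 0.11 in the CLA pools and 9.12 ± 0.081 in the control pools (SD, n = 5 each), a difference of -0.090 ± 0.073 (SE, log2). It kept its sign under all 17 settings, from -0.13 to -0.058, and was closest to 0 without CLA pool 1.

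Over the 12 probe sets, 8 had a positive and 4 a negative difference, beside 43.5% positive and 55.9% negative among all probe sets tested. The median difference was 0.028, and that of all probe sets was -0.018. In the fit of limma over all probe sets with Benjamini-Hochberg adjustment, 0 of the 12 passed an adjusted p under 0.05, where 0 of 24016 (0%) did. At an unadjusted p under 0.05, 2 of the 12 counted as higher in the CLA pools, both of NAMPT, and 0 as lower, beside 4.01% higher and 4.88% lower, 8.89% together, among all probe sets. The groups did not overlap for 1 of the 12, the dimmer NAMPT probe set, with CLA higher, as for 1.18% of all probe sets, and for 0 with CLA lower, beside 0.791%. These counts come from the differences with which the genes were chosen, so nothing is read from them.

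**Figure D3:**
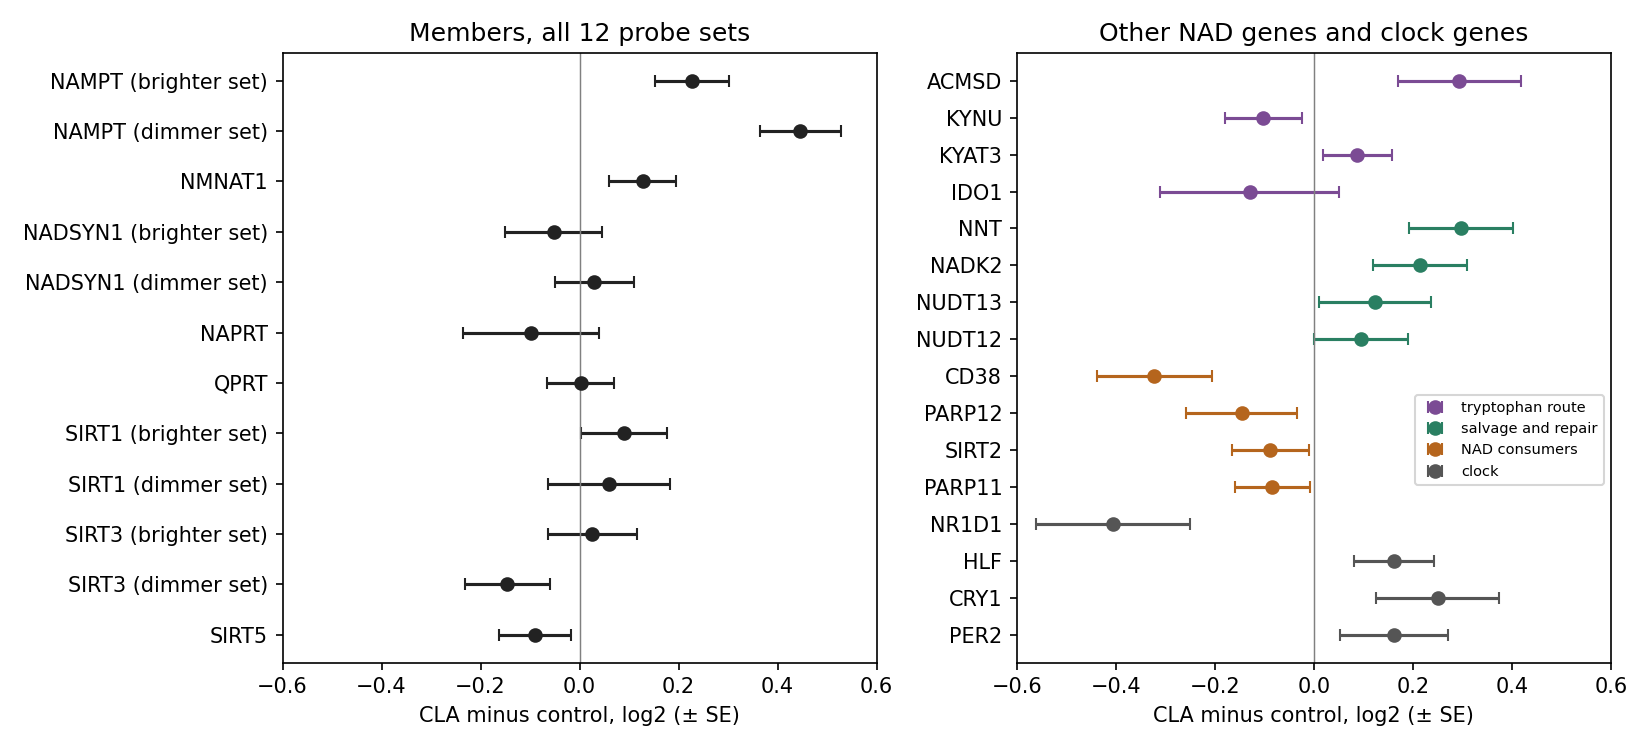
Difference CLA minus control in log2 (x axis, ± SE) for the 12 probe sets of the members (left) and for 16 further genes of NAD metabolism and the circadian clock at their brightest probe set (right, coloured by list). NAMPT lies at 0.23 and 0.45, the other members between -0.15 and 0.13, and the further genes between NR1D1 at -0.41 and NNT at 0.30.

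Of 48 further genes of NAD metabolism in 3 lists, 29 were measured, each read at its brightest probe set. Of these, 15 had a positive and 14 a negative difference, with a median of 0.004 that stood at -0.015 after quantile normalization, -0.0066 after cyclic loess normalization and 0.035 after subtraction of array medians. With single pools left out, the median ranged from -0.034 without control pool 5, where 10 of 29 were positive and 19 negative, to 0.032 without control pool 4. In limma with Benjamini-Hochberg adjustment 0 of 29 passed, and at an unadjusted p under 0.05, 3 were higher and 1 was lower in the CLA pools, beside 4.01% and 4.88% of all probe sets. The groups overlapped for all 29, while they did not for 1.97% of all probe sets.

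In the tryptophan route to NAD, 5 of 7 measured genes had a positive difference, with a median of 0.048, and 4 of 7 after quantile or cyclic loess normalization. One control pool turned the direction of the list: without control pool 5, 3 of 7 were positive (median -0.011). The median was also 0.0035 without CLA pool 1 and 0.105 without control pool 4. ACMSD, a decarboxylase that draws the pathway's intermediate away from quinolinate and NAD, had log2 values of 10.76, 10.47, 10.47, 10.98 and 10.77 in CLA pools 1 to 5, against 10.50, 10.24, 10.67, 10.13 and 10.44 in control pools 1 to 5. CLA pools 1, 4 and 5 lay above every control pool. Its difference was 0.29 ± 0.12 (SE, log2), with limma's Benjamini-Hochberg adjusted p = 0.531. KYAT3, a kynurenine aminotransferase, differed by 0.088 ± 0.070, IDO1, a tryptophan dioxygenase induced by interferon, by -0.13 ± 0.18, and KYNU, kynureninase, by -0.10 ± 0.078 (SE, log2). The IDO1 difference shrank to -0.004 without control pool 2, KYAT3 to 0.0555 without CLA pool 3 and KYNU to -0.0635 without control pool 1. The KYNU probe set was among the dimmest 30%.

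In the list of salvage, phosphorylation, transport and repair, 7 of 11 genes had a positive difference (median 0.026), but 5 of 11 after quantile or cyclic loess normalization and 9 of 11 after subtraction of array medians. Here too the direction turned without control pool 5, with 4 of 11 positive and a median of -0.021, while the median was 0.0015 without CLA pool 4 and 0.0665 without control pool 4. NNT, the mitochondrial transhydrogenase that passes electrons between NADH and NADPH, had log2 values of 11.13, 10.69, 11.05, 10.99 and 11.04 in CLA pools 1 to 5, against 10.81, 10.51, 10.91, 10.50 and 10.68 in control pools 1 to 5. In this gene 4 CLA pools lay above every control pool and CLA pool 2 did not. The difference was 0.30 ± 0.11 (SE, log2; limma's Benjamini-Hochberg adjusted p = 0.455), and it was -0.002 at the dimmer NNT probe set. NADK2, the mitochondrial NAD kinase, averaged 10.83 ± 0.092 in the CLA pools and 10.62 ± 0.20 in the control pools (SD, n = 5 each), a difference of 0.21 ± 0.095 (SE, log2; limma's adjusted p = 0.555). NUDT13 differed by 0.12 ± 0.11 and NUDT12, a peroxisomal NADH pyrophosphatase, by 0.096 ± 0.095 (SE, log2). Single pools carried much of both, since NUDT13 stood at 0.0275 without CLA pool 4 and NUDT12 at 0.017 without control pool 5. The other probe sets of NUDT12 differed in the opposite direction, by -0.082 and -0.024.

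Among the NAD-consuming enzymes, 8 of 11 measured genes had a negative difference (median -0.032), and 6 of 11 after subtraction of array medians. With single pools left out, 6 to 9 were negative, and the median ranged from -0.069 without control pool 3 to -0.0105 without CLA pool 1. CD38, an NAD glycohydrolase of immune cells, had log2 values of 4.47, 3.88, 4.17, 4.32 and 4.36 in CLA pools 1 to 5, against 4.30, 4.71, 4.68, 4.48 and 4.64 in control pools 1 to 5. The groups overlapped through CLA pools 1, 4 and 5 and control pool 1. The CD38 means of 4.24 ± 0.23 in the CLA and 4.56 ± 0.17 in the control pools (SD, n = 5 each) lay little above the dimmest 30% of probe sets. The difference was -0.32 ± 0.12 (SE, log2; limma's Benjamini-Hochberg adjusted p = 0.464), while the dimmer CD38 probe set differed by 0.26. Beside it, 10 of 11 markers of T and NK lymphocytes had a negative difference, and their mean log2 value was 5.98 to 6.19 in the CLA pools and 6.15 to 6.44 in the control pools. Their part in the CD38 values was not tested. The poly(ADP-ribose) polymerase family members PARP12 and PARP11 differed by -0.15 ± 0.11 and -0.084 ± 0.076, and SIRT2, a cytoplasmic sirtuin, by -0.088 ± 0.078 (SE, log2). SIRT2 differed by 0.056 at its dimmer probe set, and by -0.026 at the brighter without CLA pool 2. PARP12 differed by -0.081 without CLA pool 1 and PARP11 by -0.0555 without control pool 4.

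NAMPT is a known target of the circadian clock in mouse liver, and the cows' hour of biopsy was not analysed here. Of 19 clock genes listed, 7 were measured, and 6 of them had a positive difference (median 0.14), as they had after each of 3 scalings. The other probe sets of 3 of these 6 had a negative difference, -0.16 for HLF, -0.15 for NFIL3 and -0.18 for BHLHE40, so this count rests on the choice of the brightest probe set. With single pools left out, 5 or 6 of 7 were positive, and the median was lowest, at 0.069, without CLA pool 5. In limma with Benjamini-Hochberg adjustment 0 of 7 passed, and at an unadjusted p under 0.05, 0 were higher and 1 was lower, beside 4.01% and 4.88% of all probe sets. NR1D1, the haem-binding clock repressor REV-ERB alpha, had log2 values of 5.28, 5.29, 5.55, 5.46 and 5.71 in CLA pools 1 to 5, against 5.67, 5.42, 5.77, 6.22 and 6.24 in control pools 1 to 5. CLA pools 1 and 2 lay below every control pool. Its difference was -0.41 ± 0.16 (SE, log2; limma's adjusted p = 0.491). CRY1, a repressor of the clock, differed by 0.25 ± 0.12, and PER2, another, by 0.16 ± 0.11 (SE, log2), or by 0.095 without control pool 5. The clock output factor HLF differed by 0.16 ± 0.080 (SE, log2).

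NAMPT is also abundant in neutrophils and macrophages. Of 7 measured neutrophil markers, 5 had a positive difference, and their mean log2 value ranged from 5.96 to 6.33 in the CLA pools and from 6.01 to 6.24 in the control pools, so the groups overlapped. Of 8 measured Kupffer cell and macrophage markers, 0 had a positive and 7 a negative difference, while 3 had a positive difference after subtraction of array medians, and 3 each without CLA pool 2, control pool 1 or control pool 4. Their mean was 9.14 to 9.55 in the CLA pools and 9.19 to 9.66 in the control pools. Among the neutrophil genes, LTF had the highest difference, 0.29 ± 0.20, and S100A8 the lowest, -0.14 ± 0.15, while S100A9 differed by 0.096 ± 0.080 (SE, log2). The other probe set of LTF differed by -0.16 and that of S100A9 by 0.25. The part of these cells in the NAMPT values was not tested. Of the other markers, 4 of 9 endothelial, 7 of 9 stellate cell and fibroblast, 0 of 6 erythroid, 2 of 7 skeletal muscle and 1 of 4 adipocyte genes had a positive difference, the last 3 of 4 after each scaling. The positive adipocyte gene, FABP4, differed by 0.57 ± 0.52 (SE, log2), and the others by -0.16 to -0.01. The adipocyte mean was 5.19 in CLA pool 4, 4.30 to 4.76 in the other CLA pools and 4.325 to 4.625 in the control pools. CLA pool 4 was also the highest at the dimmer NAMPT probe set, and a link was not tested. Of the 4 adipocyte genes, 2 were among the dimmest 30% of probe sets. With single pools left out, the positive counts ranged from 3 to 7 for endothelial, 4 to 7 for stellate cell and fibroblast, 0 to 2 for erythroid, 2 to 4 for skeletal muscle, 0 to 3 for adipocyte and 4 to 6 for neutrophil genes.

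The values between pools of the same group were not used to choose the genes, and asked which members vary with NAMPT. With group means removed, the brighter NAMPT probe set was set against the brightest probe set of each of the 7 other genes over the 10 pools. SIRT5 followed it, with Pearson's r = 0.843 (exact permutation within groups, two-sided, p = 0.00361, Benjamini-Hochberg adjusted p = 0.0253 over 7 relations) and Spearman's rho = 0.921 (exact permutation p = 0.00139, adjusted 0.00972). In this set 99.8% of the 9154 other genes had a lower r with NAMPT than SIRT5. With group means removed, CLA pool 1 lay farthest from the median of NAMPT. CLA pools 2 and 5 tied next, each 0.12 above the group mean, and pool 2 was taken. Without CLA pools 1 and 2, r was 0.777 (exact permutation p = 0.0556, adjusted 0.156). The adjusted p also missed 0.05 without any single one of CLA pools 1, 2 and 5 and control pools 1 and 2 (0.0632 to 0.107).

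The relation was not seen at the dimmer NAMPT probe set, where r with SIRT5 was -0.163 (exact permutation p = 0.698, adjusted 0.987). Pools of the same number also deviated to the same side of their group mean. They did so in 5 of 5 numbers for SIRT5, for the brighter NAMPT and the dimmer NADSYN1 probe set, and for 4.24% of all probe sets. The dimmer NAMPT probe set did so in 4 of 5 numbers, and the other probe sets of the members in 0 to 3. Taken as differences between pools of the same number, 5 pairs in all, r with SIRT5 was 0.414 (exact permutation p = 0.400, adjusted 0.729). Among the other genes taken this way, SIRT1 had r = 0.892 (exact permutation p = 0.00833, adjusted 0.0583) and NMNAT1 r = 0.524 (adjusted p = 0.729), and the rest lay between -0.13 for SIRT3 and 0.431 for NADSYN1.

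**Figure D4:**
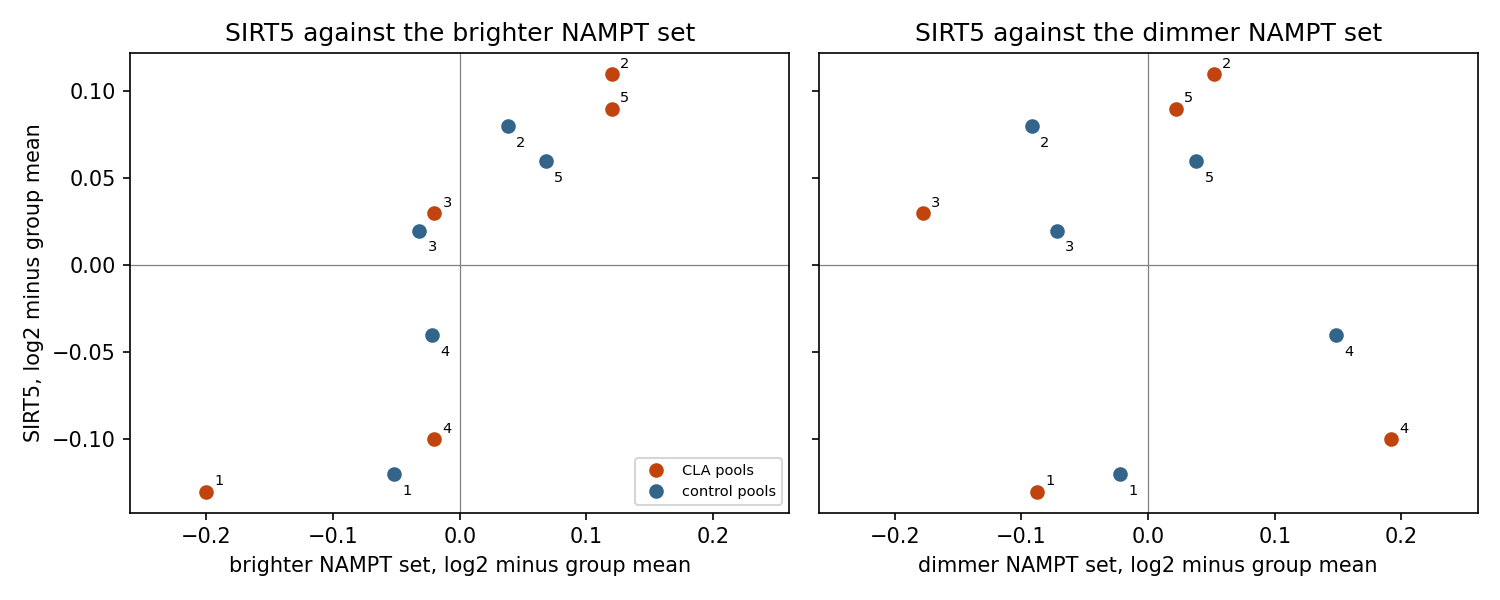
Log2 value of SIRT5 minus its group mean (y axis) against that of the brighter (left) and dimmer (right) NAMPT probe set (x axis) for the 5 CLA pools and 5 control pools, labelled by pool number. Pearson's r is 0.843 on the left and -0.163 on the right, and pools of the same number lie on the same side of 0 for SIRT5.

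The other 6 relations with the brighter NAMPT probe set missed the threshold, with r from -0.253 for NMNAT1 to 0.299 for QPRT (exact permutation adjusted p from 0.818 to 0.966). Without CLA pools 1 and 2, r was -0.739 for SIRT1 and -0.704 for NMNAT1 (exact permutation adjusted p = 0.156 each), opposite in sign to their values as differences between pools of the same number. The SD of all values on an array, a measure of its spread, had r = -0.186 with NAMPT (exact permutation p = 0.671) and r = -0.0248 with SIRT5 (p = 0.949), group means removed. It had r = 0.778 with SIRT1 (p = 0.0211) and r = 0.669 with NMNAT1 (p = 0.0165), both at an adjusted p of 0.0844 by exact permutation over 8 relations. Control pool 5 and CLA pool 5 lay farthest from the median spread once group means were removed. Without these arrays, r was 0.668 for SIRT1, 0.410 for NMNAT1, 0.498 for NAMPT and 0.653 for SIRT5 (exact permutation p from 0.139 to 0.403). QPRT had r = 0.507 with the spread on all arrays and 0.870 without these (exact permutation p = 0.180 and 0.0174). The 5 genes whose values over the 10 pools, group means removed, were most like the brighter NAMPT probe set among 9154 genes were SERGEF (r = 0.950), CALM3 (r = 0.942), SLC6A17 (r = 0.935), GUCA2A (r = 0.933) and CBLIF (r = 0.915). They differed between CLA and control pools by -0.09, -0.03, -0.06, 0.05 and 0.19 on the log2 scale. GUCA2A averaged 3.41 in the CLA and 3.36 in the control pools, and CBLIF 3.35 and 3.17. Both lay below the dimmer SIRT1 probe set, which was among the dimmest 30%. SLC6A17 averaged 4.58 and 4.64, SERGEF 5.66 and 5.74, and CALM3 8.68 and 8.71. Whether such dim signals stand for transcripts in liver was not tested.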

How the data were processed

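The authors deposited normalized log2 values for each probe set on each array, with 2 decimals. Per the submitters' processing notes, Affymetrix Expression Console 1.1 and RMA, which corrects background, equalizes arrays and summarizes probes, were used, and their settings and any genome build are not given in the sources used here. Of 24128 probe sets, 112 manufacturer controls were left out. Gene names came from the platform annotation, in which 13292 probe sets had 1 gene symbol, 86 several and 10638 none. The gene identifiers of the 8 genes found matched those of RefSeq.

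Titles gave group and pool number. Differences are CLA minus control over the 10 arrays, fitted with limma 3.58.1 (lmFit and eBayes, R 4.3.3) and adjusted over 24016 probe sets. On simulated data with 50 probe sets changed at each size, the fit recovered 42% at 1.3-fold, 72% at 1.5-fold and 96% at 2-fold. It made 11 false calls there, and 0 where nothing was changed. The sizes ran up to 3-fold, with 98% recovered. Where many probe sets change, the adjusted threshold is easier to reach than in these data, where 0 of 24016 passed. These shares can thus be too high here, and the 1.17-fold of the brighter NAMPT probe set was below every size simulated. Changes of the size seen for NAMPT can therefore be missed. A gene with several probe sets was read at the brightest for lists and relations (9155 genes). Detection calls were not used, so signal over background was not judged, and precision is limited by the number of arrays. Relations used exact permutation of 14400 orders within groups. Members, lists and tests were chosen with earlier results of these data known. Named were all members, for each of 4 pathway lists the 4 genes with the smallest p and the 5 genes most like NAMPT. S100A8, S100A9, LTF, NFIL3 and BHLHE40 were named after their values were seen. Same-numbered pools did not deviate together over all probe sets (r from -0.0855 to 0.0925), so pool numbers were not taken as pairs in the main fit. That r does not settle this for single probe sets. SIRT5 and the brighter NAMPT probe set deviated to the same side in 5 of 5 pool numbers. Alternatives were each pool left out, the pool number as a block, 3 other scalings, removal of the dimmest 30% of probe sets, trend and robust eBayes, array weights and averaging the probe sets of a gene.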

Additional observations from a re-analysis of the deposited data

Results flagged for a closer look

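Among 60 groups of 5 pools checked, 4 held a pool whose gap to its neighbour exceeded 0.71 of the group's range, and chance gives about 1 in 20. NAPRT stood at 10.90 in CLA pool 5, where the next highest CLA pool was at 10.61. QPRT stood at 11.55 in CLA pool 2, where the next was at 11.34. The dimmer SIRT1 probe set stood at 3.20 in control pool 5, where the next lowest control pool was at 3.72. The SD of all values on an array was 2.344 in control pool 5, below 2.375 in the next control pool.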

How the results depend on the processing

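With each pool left out in turn, the NAMPT difference at the brighter probe set ranged from 0.20 to 0.28, and it was 0.34 for the mean of its probe sets. The replicate block, which cannot move a difference here, gave 0.23 for NAMPT. As in every other setting run, it left 0 probe sets at an adjusted p under 0.05. At an unadjusted p under 0.05, 1575 to 2297 probe sets counted over the settings that kept all probe sets, and 2135 on all arrays as deposited. Without the dimmest 30% of probe sets, 1501 counted, out of fewer tested. With the block, 2168 counted, 1000 higher and 1168 lower. Of the 2135, 962 were higher and 1173 lower in the CLA pools, and the split was 1100 and 817 after quantile, 1196 and 779 after cyclic loess and 1474 and 627 after median scaling. The relation of NAMPT and SIRT5 had r from 0.801 to 0.892 with a pool left out and 0.777 without CLA pools 1 and 2. It had r = -0.163 at the dimmer NAMPT probe set and 0.414 with the replicate block, both settings chosen after seeing the data. The settings with pools left out rest on fewer pools, and the cause of the other values was not tested. Among the members, QPRT and the brighter SIRT3 probe set turned sign under 2 of 3 scalings. After scaling, the median of all probe sets moved by less than 0.1.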
